A study of Mus musculus with 9 samples.

Results

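The genes Tlr2, Tlr3, Tlr4, Cd14, Ly96, Myd88, Ticam1, Irak1, Irak3 and Irak4, members of the Toll-like receptor (TLR) pathway, were followed through 9 RNA-seq libraries of mouse cells. They were chosen by name, as receptors, co-receptors, adaptors and kinases of 1 pathway, and are 10 of the 56289 genes in the table. The cells were labelled RAW264.7, a macrophage-like line of BALB/c origin, and fell into 3 groups of 3 libraries. Con was untreated, with PBS in place of a drug according to the study's methods. TNF-α received recombinant human TNF-α at 20 ng/ml for 24 h. TNF-α+WBT received the same TNF-α together with 1.0 μg/ml of an extract of Wang Bi tablet, a herbal medicine, for 24 h. The labels call the last group WBP and TNF-α, and the study's name TNF-α+WBT was matched to it. The study describes the 3 libraries of a group as biological replicates. The labels do not say that they came from separate cultures, so the p-values measure the spread between these libraries.

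TLRs are membrane receptors that recognize molecules of microbes and of damaged tissue. Tlr2, paired with Tlr1 or Tlr6, binds bacterial lipoproteins at the cell surface, Tlr4 with Ly96 binds lipopolysaccharide that Cd14 hands over, and Tlr3 binds double-stranded RNA in endosomes. Most TLRs signal through the adaptor Myd88, which assembles the kinases Irak4 and Irak1, whereas Tlr3 signals through the adaptor Ticam1 (TRIF), which Tlr4 uses as well. Both branches lead to the transcription factor NF-κB, which the TNF receptors also activate without any TLR. Macrophages are known for high levels of many of these receptors.

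The cell label was checked against marker genes. Of 18 macrophage markers, 1 (Mertk) lay above 1 FPKM in all 9 libraries, and 7 were listed at 0 in every library, among them the defining markers Ptprc (CD45), Spi1, Itgam (CD11b) and Adgre1 (F4/80). FPKM counts fragments relative to transcript length and library depth, so levels can be compared between genes, but only roughly. For 54759 of 55144 genes the gene value was the sum over its transcripts, in which short transcripts weigh more. By contrast, 14 of 18 fibroblast markers, 9 of 12 Schwann cell markers, 1 of 8 endothelial markers and 12 of 12 genes used by every cell lay above 1 FPKM in all 9 libraries. The markers thus go against the label, and the samples are called the cultures here. The summed level of the macrophage markers was 4.48 to 4.84 FPKM in Con, 3.42 to 3.94 in TNF-α and 3.53 to 5.11 in TNF-α+WBT. For the Schwann cell markers it was 954 to 1009, 777 to 839 and 841 to 871 FPKM, for the fibroblast markers 5676 to 6054, 6068 to 6355 and 6027 to 6139 FPKM, and for the endothelial markers 2.40 to 3.21, 3.85 to 3.96 and 3.79 to 4.34 FPKM. The part of these marker shifts in the results below was not tested, and in RNA from a whole culture fewer cells of a type and less RNA per cell cannot be told apart. Depth is not stated in FPKM. Its estimate was 16935000 to 26280000 fragments per library.

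All of the 10 genes but Irak3 were above 1 FPKM in every library. Over the 9 libraries Irak1 had the highest level at 42.0 ± 5.38 FPKM (SD, n = 9), which is above 93.6% of the 25417 genes tested. Myd88 followed at 9.80 ± 0.598 FPKM, Tlr2 at 8.10 ± 3.67, Irak4 at 7.46 ± 0.789, Tlr4 at 7.06 ± 5.51, Ticam1 at 6.50 ± 0.888, Ly96 at 5.94 ± 0.711, Cd14 at 5.25 ± 0.616 and Tlr3 at 5.20 ± 1.28 (SD, n = 9 each). The libraries of Irak1 did not overlap those of Myd88, and those of Tlr3 lay above those of Irak3. From Myd88 to Tlr3, the ranges of all neighbours in this order overlapped. The order is approximate, since Irak1 has 22 annotated transcripts and Tlr2 and Ticam1 have 1 each. The place of Tlr2 depended on the group, since its mean was the lowest but that of Irak3 in Con (3.35 ± 0.366 FPKM) and followed that of Irak1 in TNF-α (11.3 ± 0.456 FPKM, SD, n = 3 each). Irak3, a kinase-dead member of its family that restrains the signal and is typical of monocytes and macrophages, had 0.0185 ± 0.0204 FPKM (SD, n = 9).

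**Figure D1:**
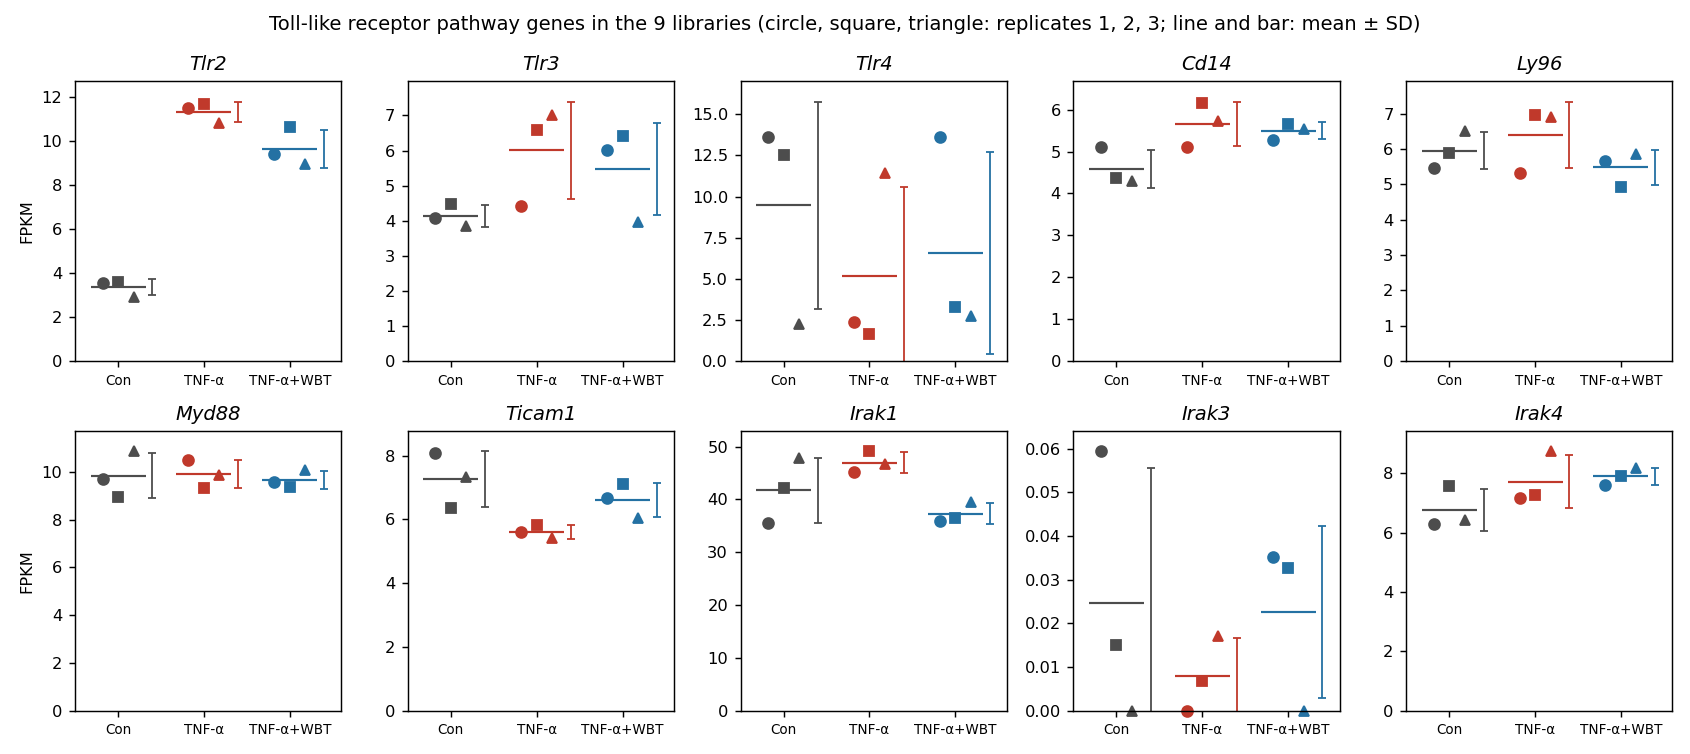
FPKM of the 10 genes in each library (vertical axis, its own scale per gene, starting at 0), by group; points are libraries, the line is the group mean and the bar its SD (n = 3), cut off where it would pass below 0. Tlr2 is at 2.93 to 3.60 in Con and at 8.93 or more in all 6 libraries with TNF-α, and Tlr4 lies at 2 separate levels inside every group.

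With TNF-α, 1 of the 10 genes passed the test against Con, and it was a receptor, Tlr2. The test was limma on log2(FPKM + 0.1) with a Benjamini-Hochberg adjusted p under 0.05 over all genes tested, and in the same comparison 4.86% of all genes passed. The other 9 genes, among them both adaptors and all kinases, did not pass. The median log2 fold change of the 10 genes was 0.138, against 0.003 over all genes tested. At an unadjusted p under 0.05 there were 4 of the 10 (Tlr2, Tlr3, Cd14 and Ticam1), where 16.1% of all genes were. At the thresholds that the study used, a fold change over 2 and an unadjusted p under 0.05, 1 of the 10 passed, again Tlr2, as did 2.42% of all genes. The groups did not overlap for 3 of the 10 (Tlr2 and Cd14 higher, Ticam1 lower), and for 21.2% of all genes.

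Tlr2 lies on chromosome 3 from 83836272 to 83841767 on the minus strand (GRCm38, GENCODE M21) and has 1 transcript in the table. Its promoter sequence is shown because Tlr2 carried the difference between the groups. It was taken from RefSeq (GRCm38.p6, chr3:83841589-83841858, minus strand) and runs 5′ to 3′ from 250 bases before the RefSeq start site to 20 bases after it. Capitals mark matches to the NF-κB binding motif, searched on both strands.
Tlr2: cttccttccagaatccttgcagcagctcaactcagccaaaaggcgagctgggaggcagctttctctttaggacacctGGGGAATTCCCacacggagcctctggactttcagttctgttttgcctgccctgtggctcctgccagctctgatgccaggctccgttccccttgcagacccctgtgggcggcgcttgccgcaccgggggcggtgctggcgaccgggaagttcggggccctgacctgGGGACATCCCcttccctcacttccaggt
The first run of capitals holds 2 overlapping matches, which begin at positions -173 and -172 from the RefSeq start site, and the other run is 1 match that begins at -8. The GENCODE transcript begins further upstream, at 83841767, between the runs of capitals. By that annotation the second run lies downstream of the start site. Of all 32851 promoters in the table, 8.46% held at least 1 match in their 300 bases. Among the 10 genes 7 had a promoter sequence. Tlr3 and Irak1 held 1 match each, and Myd88, Ticam1, Irak3 and Irak4 held none. A match is only a stretch of letters and does not show that a factor binds there.

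Tlr2 had 3.53, 3.60 and 2.93 FPKM in Con, 11.5, 11.7 and 10.8 in TNF-α, and 9.39, 10.6 and 8.93 in TNF-α+WBT. Every library with TNF-α lay above every Con library, with or without WBT, and the TNF-α+WBT libraries lay below the TNF-α libraries. Tlr2 rose 3.32-fold with TNF-α against Con (95% interval 2.85 to 3.87; limma, log2 fold change 1.73, SE 0.10, adjusted p = 2.07e-05). In TNF-α+WBT it was 2.83-fold higher than in Con (95% interval 2.43 to 3.29; adjusted p = 6.52e-05). Set against TNF-α alone, TNF-α+WBT gave a log2 difference of -0.23 (95% interval -0.45 to -0.01), which did not pass after adjustment (limma, unadjusted p = 0.0413, adjusted p = 0.766). Between 179.5 and 793.6 fragments per library were estimated for this gene.

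The receptors that pair with Tlr2 did not pass the test, and the ratio within the pairs differed between the groups. Tlr1 had 2.05, 2.45 and 2.14 FPKM in Con, 1.62, 1.56 and 2.31 in TNF-α and 1.80, 1.87 and 1.49 in TNF-α+WBT. Tlr6 had 2.38, 2.56 and 2.16 FPKM in Con, 2.76, 2.76 and 1.97 in TNF-α and 2.10, 2.98 and 2.13 in TNF-α+WBT. The TNF-α values of both overlapped those of Con, with log2 differences of -0.28 for Tlr1 (adjusted p = 0.516) and 0.06 for Tlr6 (adjusted p = 0.926, limma). For Tlr1 all TNF-α+WBT libraries lay below all Con libraries (log2 difference -0.35, limma, adjusted p = 0.423). In Con the Tlr2 level was 1.37 to 1.72 times the Tlr1 level and 1.36 to 1.49 times the Tlr6 level. In TNF-α it was 4.69 to 7.48 and 4.15 to 5.49 times, and in TNF-α+WBT 5.21 to 5.99 and 3.56 to 4.48 times. These ratios of FPKM are descriptions of RNA levels and were not tested.

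The genes whose pattern over the 9 libraries was most like that of Tlr2 were Gpr176, Cstb and Nfkbia. Each had a Pearson correlation of 0.997 with Tlr2 on the log2(FPKM + 0.1) scale, among the 12686 genes that averaged 1 FPKM or more. The points are 9 libraries in 3 groups, so the correlations mostly describe the step between Con and the libraries with TNF-α. Nfkbia encodes IκBα, the inhibitor that holds NF-κB in the cytoplasm and is itself an NF-κB target. It had mean levels of 24.7 FPKM in Con, 80.3 in TNF-α and 70.1 in TNF-α+WBT.

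Tlr3 lies on chromosome 8 from 45395665 to 45411080. It had 4.07, 4.48 and 3.85 FPKM in Con, 4.42, 6.59 and 7.0 in TNF-α and 6.03, 6.42 and 3.96 in TNF-α+WBT. The TNF-α replicate 1 lay within the range of Con, and so did the TNF-α+WBT replicate 3. The log2 difference between TNF-α and Con was 0.50 (95% interval 0.01 to 0.996; limma, unadjusted p = 0.0464, adjusted p = 0.2996). The difference between TNF-α+WBT and TNF-α was -0.13 (-0.63 to 0.36; adjusted p = 0.956). The estimated split of Tlr3 between its transcripts varied between libraries. Tlr3-201 held 15.5 to 42.5% of its FPKM in Con and 4.98 to 50.3% in TNF-α. In TNF-α replicate 2 Tlr3-205 held 63.7%, and in TNF-α replicate 1 Tlr3-209, of 707 bases, was at 0. The part of this split in the gene values was not tested. An exon of Gm45542 on the opposite strand overlaps Tlr3 exons over up to 258 bases, and the kit named in the labels does not mark strand as far as they state. Gm45542 was at 0.0411 ± 0.0358 FPKM in Con and 0.199 ± 0.0121 in TNF-α (SD, n = 3 each), and it rose itself (limma, log2 fold change 1.12, adjusted p = 0.0405). Its part in the values of Tlr3 was not tested.

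Tlr4 lies on chromosome 4 from 66827584 to 66930284, and no other annotated gene overlaps its exons. Its values split into 2 levels that did not follow the groups. They were 13.6, 12.5 and 2.24 FPKM in Con, 2.36, 1.66 and 11.4 in TNF-α and 13.6, 3.30 and 2.75 in TNF-α+WBT. Con replicates 1 and 2, TNF-α replicate 3 and TNF-α+WBT replicate 1 were at 11.4 or more, the other 5 libraries were at 3.30 or less, and each group held libraries of both levels. The log2 difference between TNF-α and Con was -1.01 with a 95% interval from -3.18 to 1.16 (limma, adjusted p = 0.699), and that of TNF-α+WBT from TNF-α was 0.47 (-1.70 to 2.64; adjusted p = 0.967). As a ratio, the interval for TNF-α against Con runs from 0.1103 to 2.23.

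The range within a group was at least 2.27 on the log2 scale for Tlr4 in all 3 groups. Of the 12686 genes that averaged 1 FPKM or more, 24 including Tlr4 (0.189%) had as large a range in every group. Of the other 23, 0 had the same 4 libraries as their highest. The co-receptors of Tlr4 did not show 2 levels. Searched instead by correlation on the log2(FPKM + 0.1) scale, 1 of the 12686 genes had a Pearson r of at least 0.95 with Tlr4 over the 9 libraries. It was Dbp, a transcription factor of the circadian clock (r = 0.964), with 10.1, 10.9 and 8.04 FPKM in Con, 7.86, 7.55 and 9.61 in TNF-α and 9.83, 8.16 and 8.05 in TNF-α+WBT. Its 4 highest libraries were those of Tlr4, over a much narrower range. It was singled out after its values were seen, and the r is a description.

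Except in TNF-α+WBT replicate 3, where the non-coding Tlr4-203 held 52.8%, most of the Tlr4 FPKM came from Tlr4-201. This transcript of 3 exons and 4077 bases encodes the receptor. Its share was 73.4 to 93.3% in Con, 75.3 to 94.2% in TNF-α and 46.3 to 90.3% in TNF-α+WBT. It had 12.6, 11.7 and 1.65 FPKM in Con, 1.77, 1.32 and 10.7 in TNF-α and 12.3, 1.89 and 1.27 in TNF-α+WBT, which is between 87.9 and 1351 estimated fragments per library. Tlr4-204, a non-coding transcript of 646 bases, was high in the same 4 libraries, at 0.395, 0.364 and 0 FPKM in Con, 0, 0.00161 and 0.292 in TNF-α and 0.376, 0 and 0 in TNF-α+WBT. It rested on an estimated 6.7 fragments or fewer per library. Tlr4-203, a non-coding transcript of 504 bases, had 0.596, 0.473 and 0.558 FPKM in Con, 0.567, 0.319 and 0.368 in TNF-α and 0.947, 1.35 and 1.45 in TNF-α+WBT. It was not higher in the libraries where Tlr4-201 was high. It rested on an estimated 13.5 fragments or fewer per library, and its difference of TNF-α+WBT from TNF-α did not pass (limma, log2 difference 1.39, adjusted p = 0.439). No cause of the 2 levels was tested.

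**Figure D2:**
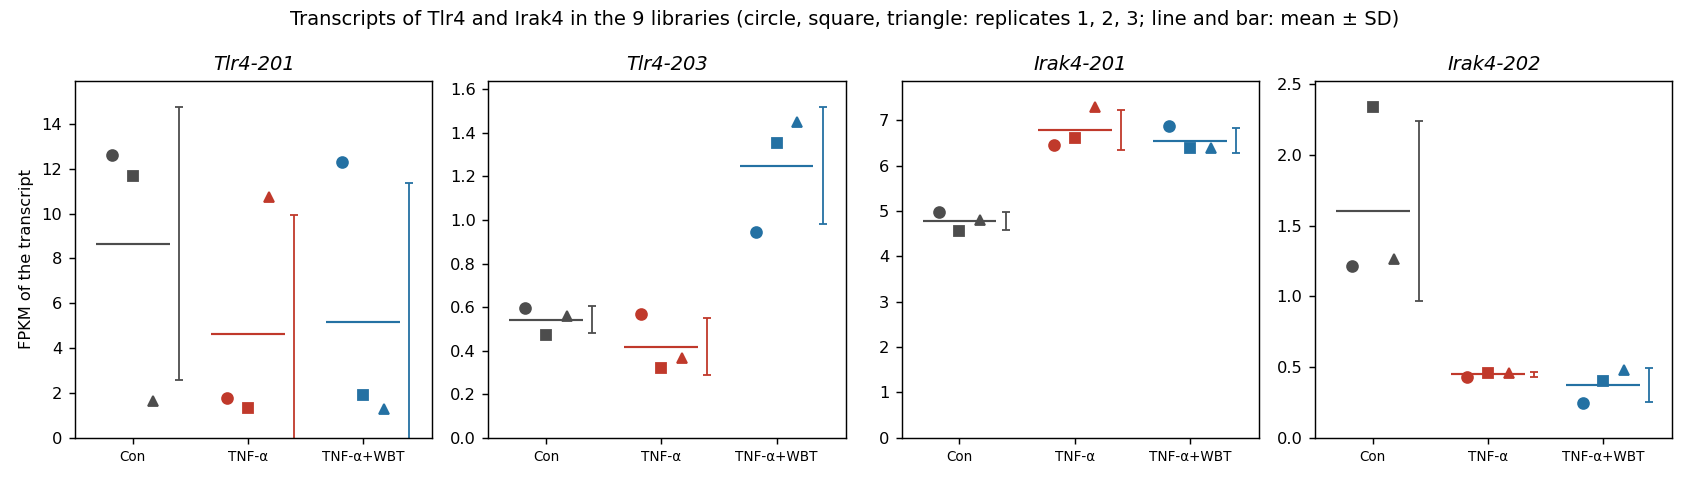
FPKM of 2 of the transcripts of Tlr4 and 2 of Irak4 in each library (vertical axis, starting at 0, its own scale per transcript), by group; points are libraries, the line is the mean and the bar the SD (n = 3), cut off below 0. Tlr4-201 is at 10.7 or more in 4 libraries spread over the groups and at 1.89 or less in the other 5, and Irak4-202 is at 1.21 to 2.33 in Con and at 0.482 or less in the libraries with TNF-α.

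The co-receptors of Tlr4 stayed in a narrow range. Cd14, a membrane-anchored protein that binds lipopolysaccharide and lies on chromosome 18 from 36725067 to 36726798, had 5.11, 4.37 and 4.30 FPKM in Con, 5.11, 6.16 and 5.72 in TNF-α and 5.27, 5.67 and 5.55 in TNF-α+WBT. The lowest TNF-α library was just above the highest Con library. The log2 difference between TNF-α and Con was 0.30 (95% interval 0.08 to 0.52; limma, unadjusted p = 0.0140, adjusted p = 0.153), and that of TNF-α+WBT from TNF-α was -0.04 (-0.26 to 0.18; adjusted p = 0.974). Ly96 (MD-2), the lipopolysaccharide-binding partner of Tlr4 on chromosome 1 from 16688051 to 16709611, had 5.45, 5.90 and 6.50 FPKM in Con, 5.32, 6.97 and 6.91 in TNF-α and 5.65, 4.93 and 5.87 in TNF-α+WBT. All 3 groups overlapped. Its log2 differences were 0.10 (-0.19 to 0.38; adjusted p = 0.793) for TNF-α against Con and -0.21 (-0.50 to 0.07; adjusted p = 0.834) for TNF-α+WBT against TNF-α.

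Of the adaptors, Myd88 had overlapping values in all groups and Ticam1 was lower in every TNF-α library. Myd88 lies on chromosome 9 from 119335934 to 119341411. It had 9.71, 8.96 and 10.8 FPKM in Con, 10.5, 9.33 and 9.85 in TNF-α and 9.56, 9.35 and 10.1 in TNF-α+WBT. The groups overlapped throughout. The 95% interval of its log2 difference was -0.17 to 0.19 for TNF-α against Con and -0.21 to 0.15 for TNF-α+WBT against TNF-α (limma, adjusted p = 0.979 and 0.974). Exons of Acaa1a on the opposite strand overlap those of Myd88 over up to 223 bases.

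Ticam1 lies on chromosome 17 from 56269319 to 56276786. It had 8.09, 6.36 and 7.33 FPKM in Con, 5.61, 5.84 and 5.41 in TNF-α and 6.67, 7.12 and 6.04 in TNF-α+WBT. All TNF-α libraries lay below all libraries of both other groups. The log2 difference between TNF-α and Con was -0.36 (95% interval -0.59 to -0.13; limma, unadjusted p = 0.00633, adjusted p = 0.0947). It missed the threshold with all libraries and passed it when Con replicate 2 was left out (log2 difference -0.45, adjusted p = 0.0434), the 1 setting of 19 in which it did. With WBT added, the log2 difference from TNF-α was 0.23 (0.00 to 0.46; unadjusted p = 0.0493, adjusted p = 0.788). No exon of another gene overlaps Ticam1.

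The kinases did not pass the test in any comparison. Irak4, the first kinase to join Myd88, lies on chromosome 15 from 94543643 to 94581815. It had 6.29, 7.57 and 6.42 FPKM in Con, 7.15, 7.26 and 8.73 in TNF-α and 7.61, 7.91 and 8.18 in TNF-α+WBT. The Con replicate 2 reached into the TNF-α range, and TNF-α+WBT lay just above Con. Its log2 differences were 0.19 (95% interval -0.04 to 0.41) for TNF-α against Con and 0.04 (-0.19 to 0.27) for TNF-α+WBT against TNF-α (limma, adjusted p = 0.421 and 0.975).

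Irak1, the kinase that Irak4 phosphorylates, lies on chromosome X from 74013914 to 74023918. It had 35.5, 42.1 and 47.8 FPKM in Con, 45.2, 49.1 and 46.7 in TNF-α and 35.9, 36.5 and 39.5 in TNF-α+WBT. The TNF-α+WBT libraries lay below all TNF-α libraries, while Con spanned both. The log2 difference between TNF-α+WBT and TNF-α was -0.33 (95% interval -0.55 to -0.11; limma, unadjusted p = 0.00838, adjusted p = 0.644). Between TNF-α and Con it was 0.18 (-0.04 to 0.40; adjusted p = 0.432). The small RNA genes Mir718 and Mir5132 lie within its exons. Its transcripts, examined after their values were seen, differed in direction. Irak1-215, a transcript of 644 bases that keeps an intron, had 10.1, 11.9 and 10.2 FPKM in TNF-α and 2.78, 2.63 and 6.93 in TNF-α+WBT. In Con it had 2.21, 6.23 and 10.2. Its share of the Irak1 FPKM was 6.25 to 21.3% in Con, 21.9 to 24.3% in TNF-α and 7.21 to 17.5% in TNF-α+WBT. The difference of the gene thus does not stand for the coding transcripts alone. The part of Irak1-215 in it was not tested. The coding Irak1-201 had 5.71, 1.79 and 5.36 FPKM in TNF-α and 5.40, 5.99 and 6.58 in TNF-α+WBT. The coding Irak1-204 had 4.47, 8.44 and 3.64 FPKM in TNF-α and 4.41, 4.54 and 3.94 in TNF-α+WBT. The coding Irak1-206 had 4.55, 9.21 and 3.63 FPKM in TNF-α and 4.41, 5.10 and 4.07 in TNF-α+WBT. Both were highest in TNF-α replicate 2, where Irak1-201 was lowest, and the division of fragments in that library was not tested. None of these transcripts passed for TNF-α+WBT against TNF-α (limma, adjusted p = 0.935 to 0.955).

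Irak3 lies on chromosome 10 from 120141648 to 120202130 and was near the limit of detection. It had 0.0594, 0.0150 and 0 FPKM in Con, 0, 0.00684 and 0.0171 in TNF-α and 0.0353, 0.0326 and 0 in TNF-α+WBT. Every group held a library at 0. These values stand for an estimated 4.5 fragments in Con replicate 1 and 2.0 or fewer in each other library, so no fold is given, and a difference was not detectable at this depth. A count of 0 allows up to 3 fragments, for counting error only.

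Among the 53 transcripts of the 10 genes, 47 could be tested. For Irak4, 1 transcript had lower and another higher values in all libraries with TNF-α than in Con. The transcripts were examined after their values had been seen. Irak4-201 has 2831 bases and Irak4-202 has 3437, both with 12 exons, and they differ in the last one, which lies at 94567014 to 94568306 on chromosome 15 in Irak4-201 and at 94579888 to 94581815 in Irak4-202. Irak4-202 had 1.21, 2.33 and 1.26 FPKM in Con, 0.428, 0.458 and 0.461 in TNF-α and 0.244, 0.399 and 0.482 in TNF-α+WBT. Irak4-201 had 4.98, 4.56 and 4.80 FPKM in Con, 6.45, 6.62 and 7.28 in TNF-α and 6.87, 6.39 and 6.39 in TNF-α+WBT. No Con library overlapped the libraries with TNF-α in either transcript. How often this held over all transcripts was not counted. Among genes, TNF-α and Con did not overlap for 21.2%. The share of Irak4-202 in the FPKM of the gene was 19.3 to 30.9% in Con, 5.28 to 6.31% in TNF-α and 3.20 to 5.89% in TNF-α+WBT.

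Neither difference passed after adjustment over 80149 transcripts, of which 0.635% passed. For TNF-α against Con the log2 difference of Irak4-202 was -1.57 (95% interval -2.33 to -0.81; limma, unadjusted p = 0.00146, adjusted p = 0.131) and that of Irak4-201 was 0.50 (0.28 to 0.71; unadjusted p = 0.000657, adjusted p = 0.0792). When the test was limited to transcripts averaging 1 FPKM or more, Irak4-201 passed (limma, adjusted p = 0.0248), the 1 alternative of 18 in which it did. The division of fragments between transcripts is an estimate, since the transcripts share most exons. The last exon of Irak4-202 overlaps an exon of Twf1 on the opposite strand over 170 bases, and that of Irak4-201 does not. Twf1 had 37.96 ± 1.14 FPKM in Con, 41.8 ± 0.227 in TNF-α and 40.3 ± 1.48 in TNF-α+WBT (SD, n = 3 each), and its part in the difference was not tested. Of the tested transcripts, Tlr2-201 (adjusted p = 0.000515) and Tlr3-207 (adjusted p = 0.0495) passed for TNF-α against Con. Tlr3-207, a non-coding transcript, was listed at 0 in Con, had 0.306, 0.519 and 0.369 FPKM in TNF-α, an estimated 4.6 fragments or fewer, and lost its call in 14 of 17 alternatives. It met the filter for testing only through libraries with TNF-α, so its call is not independent of that filter.

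With WBT added to TNF-α, 0 of the 10 genes passed the test, where 0.00393% of all genes (1 of 25417) did by limma with Benjamini-Hochberg adjustment. At an unadjusted p under 0.05 there were 3 of the 10 (Tlr2, Ticam1 and Irak1), where 6.31% of all genes were, and 0 of the 10 also had a fold change over 2, which 1.12% of all genes had. The groups did not overlap for the same 3 genes, Tlr2 and Irak1 lower and Ticam1 higher in TNF-α+WBT, and for 11% of all genes. The median log2 difference of the 10 genes was -0.036, and -0.002 over all genes tested. Leaving Tlr4 and Irak3 aside, the 95% intervals of the other 8 genes lay between -0.63 and 0.46 on the log2 scale. These intervals do not show that the groups were alike.

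TNF-α+WBT was also compared with Con. Tlr2 passed and the other 9 genes did not, where 3.71% of all genes passed. Both comparisons with Con use the same 3 Con libraries, and both comparisons with TNF-α the same 3 TNF-α libraries, so they are given side by side. For Cd14 the log2 difference from Con was 0.30 in TNF-α and 0.26 in TNF-α+WBT (adjusted p = 0.251), for Tlr3 0.50 and 0.37 (adjusted p = 0.498), for Irak4 0.19 and 0.23 (adjusted p = 0.340), and for Ticam1 -0.36 and -0.13 (adjusted p = 0.628, limma for TNF-α+WBT against Con in each).

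**Figure D3:**
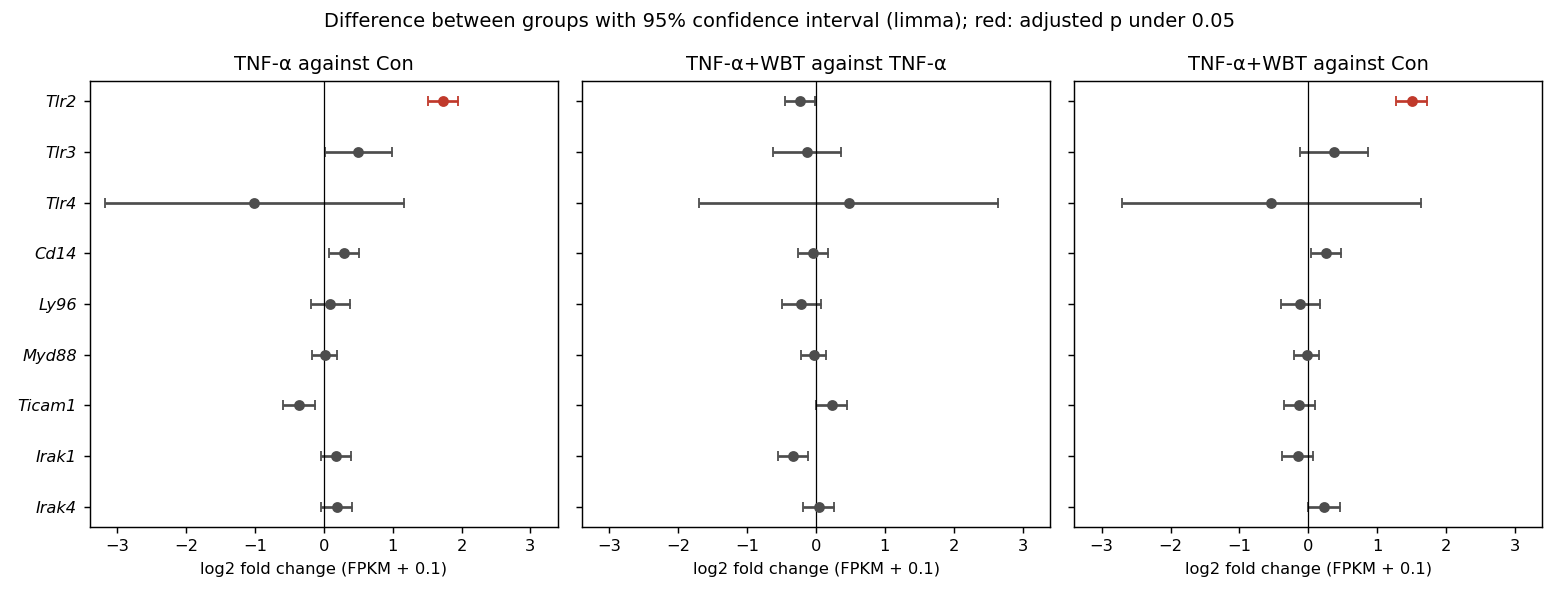
Log2 fold change (horizontal axis, on log2(FPKM + 0.1)) with its 95% confidence interval from limma for 9 genes in 3 comparisons of groups of 3 libraries; red marks an adjusted p under 0.05, and Irak3 is not drawn. Tlr2 is red in both comparisons with Con, no gene is red for TNF-α+WBT against TNF-α, and the interval of Tlr4 is the widest in each.

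Around the 10 genes, 86 other genes of the pathway were taken from lists by role, and 70 of them could be tested. With TNF-α 17 of the 70 rose and 2 fell, against 2.94% and 1.93% of all genes. Their median log2 fold change was 0.129. The lists were drawn up with results of these data already known, so the counts describe them and are not independent evidence.

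Of the receptors, Tlr2 was the 1 that passed. Of the 9 other TLRs, Tlr1 and Tlr6 were above 1 FPKM in all 9 libraries, Tlr8, Tlr9, Tlr11 and Tlr12 were listed at 0 in all, and 0 of the 3 tested passed, also at an unadjusted p under 0.05 (limma). Of the co-receptors and chaperones, Lbp, which carries lipopolysaccharide to Cd14, rose, from 12.2 ± 0.303 to 22.1 ± 1.46 FPKM (SD, n = 3 each; limma, log2 fold change 0.85, adjusted p = 0.000519), and the other 5 tested did not pass. Of 7 tested genes for proteins reported to act as endogenous TLR ligands, 0 rose and 2 fell. Tnc, which encodes the matrix protein tenascin-C, fell from 68.1 ± 2.66 to 29.2 ± 0.148 FPKM (log2 fold change -1.22, adjusted p = 8.14e-07), and Hspd1, a mitochondrial chaperone, fell by 0.26 on the log2 scale (adjusted p = 0.00368, limma). Fn1 and Dcn did not pass.

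Among the other adaptors 0 of 3 tested passed, and 1 had an unadjusted p under 0.05 (limma). Tirap, which bridges Tlr2 and Tlr4 to Myd88, was at 6.54 to 10.2 FPKM over the 9 libraries. Ticam2, which bridges Tlr4 to Ticam1, was listed at 0 in all 9 libraries. Its exons overlap those of Tmed7 on the same strand over up to 838 bases, and the part of this overlap in the 0 was not tested. Of the 19 kinases and ubiquitin ligases below the adaptors 3 rose and 0 fell. They were Traf3, a ubiquitin ligase of the Ticam1 branch (log2 fold change 0.61, adjusted p = 0.0115), Ikbke, a kinase that activates interferon regulatory factors (0.46, adjusted p = 0.0411), and Chuk, which encodes IKKα (0.15, adjusted p = 0.0497, limma). Irak2, a relative of Irak1, had 7.83, 5.71 and 9.27 FPKM in Con, 10.8, 11.4 and 12 in TNF-α and 6.35, 10.2 and 6.67 in TNF-α+WBT. The TNF-α libraries of Irak2 lay above all the others, but neither its difference from Con (log2 0.60, adjusted p = 0.188) nor that of TNF-α+WBT from TNF-α (log2 -0.58, adjusted p = 0.718) passed.

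Of the 17 genes that rose 8 were target genes, and the others were spread over several roles. Of 10 brakes, Tnfaip3 (A20, log2 fold change 1.62, adjusted p = 0.00681), its binding partner Tnip1 (1.35, adjusted p = 3.50e-06) and Zc3h12a, an RNase that degrades cytokine mRNAs (0.77, adjusted p = 0.00300, limma), rose and 7 did not pass. Of 6 receptors of the interleukin 1 family, which also signal through Myd88, Il1rap (0.66, adjusted p = 6.09e-05) and Il18rap (0.51, adjusted p = 0.00435) rose. Of 16 target genes tested 8 rose and 0 fell. The chemokine gene Ccl2 rose from 36.0 ± 2.86 to 265 ± 3.51 FPKM (SD, n = 3 each; log2 fold change 2.88, adjusted p = 8.55e-08), Cxcl10 by 4.07 on the log2 scale (adjusted p = 0.000123), Ccl5 by 4.06 (adjusted p = 0.00931) and Cxcl1 by 2.84 (adjusted p = 1.62e-06, limma). Saa3, among the 8 that rose, was listed at 0 in Con and had 0.790 to 1.71 FPKM in TNF-α. It met the filter for testing only through libraries with TNF-α. The cytokine genes Il1b, Tnf, Il12b and Ifnb1 were listed at 0 in all 9 libraries.

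**Figure D4:**
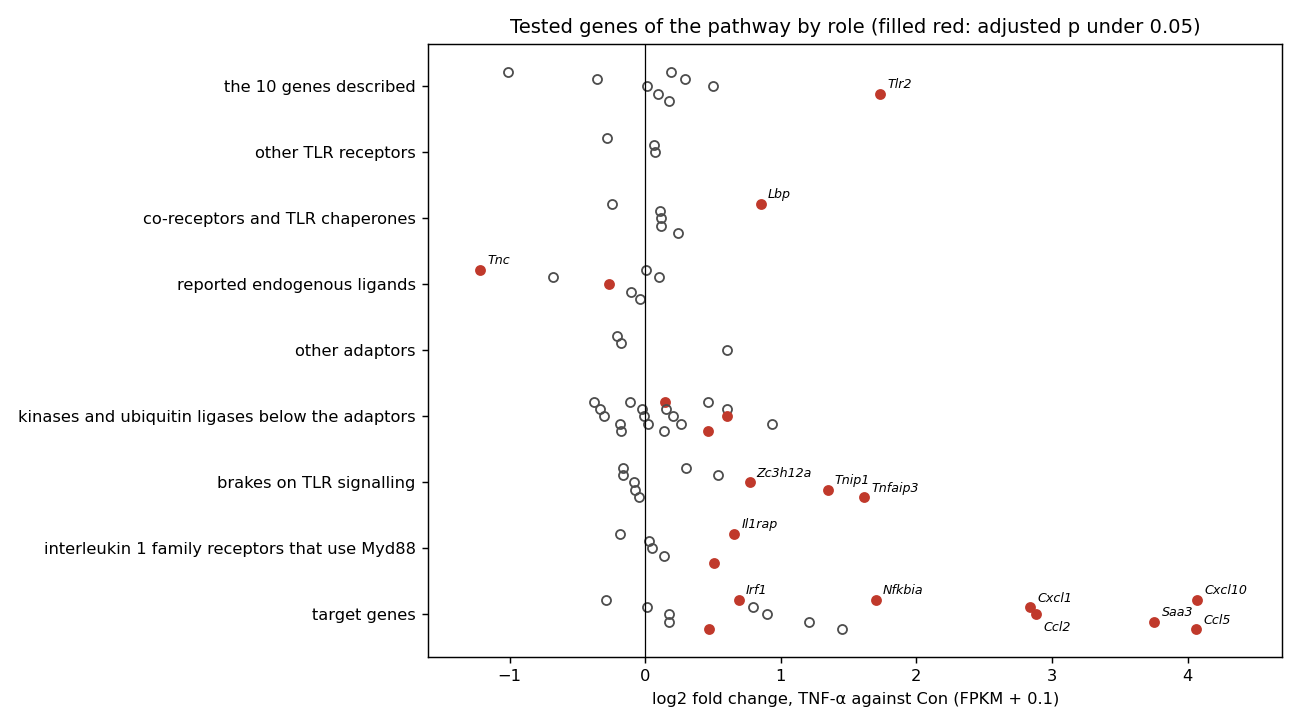
Log2 fold change of TNF-α against Con (horizontal axis, on log2(FPKM + 0.1)) for each tested gene of the pathway, grouped by role; filled red points have an adjusted p under 0.05, the height of a point within its row has no meaning, and Irak3 is not drawn. Saa3 was listed at 0 in Con, so its place depends on the added 0.1. Tlr2 is the 1 red point of its row at a log2 fold change of 1.73, and 8 of 16 target genes are red.

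Promoters of these genes were searched for the same NF-κB motif as that of Tlr2. Of the 17 other pathway genes that rose, 13 had a promoter sequence and 7 of these held a match at 1 or more start sites (Traf3, Tnfaip3, Tnip1, Nfkbia, Cxcl1, Cxcl10 and Irf1). Of the 51 that did not pass, 41 had a sequence and 5 held a match. Genes with several start sites had more letters searched than the 300 bases of 1 promoter, so these shares are descriptions.

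When WBT was added to TNF-α, 0 of the 70 other pathway genes passed, where 0.00393% of all genes did, and 12 had an unadjusted p under 0.05 (limma), where 6.31% of all genes had. Their median log2 difference was -0.017, with 37 values below 0 and 33 above. The groups did not overlap for 15 that were lower and 2 that were higher in TNF-α+WBT, against 5.61% and 5.39% of all genes. Of the 16 target genes 13 had a value below 0, as did 12867 of all 25417 genes tested, and the median of the 16 was -0.230. Side by side with Tlr2 at -0.23, Nfkbia had -0.19 (95% interval -0.31 to -0.08; adjusted p = 0.559), Tnip1 -0.21 (-0.34 to -0.09; adjusted p = 0.559), Ccl2 -0.38 (-0.50 to -0.25; adjusted p = 0.179) and Cxcl10 -0.59 (-1.30 to 0.11; adjusted p = 0.821). All TNF-α+WBT libraries lay below all TNF-α libraries for these 4 genes. Like Tlr2, the 4 had been called higher in the same TNF-α libraries that are the reference here. That choice by itself tends to put their differences below 0. For other genes that rose with TNF-α the groups overlapped, with log2 differences of -0.14 for Tnfaip3 (adjusted p = 0.964), -0.07 for Zc3h12a (adjusted p = 0.949) and 0.07 for Traf3 (adjusted p = 0.955, limma). The values of the target genes Nos2 (0.21, adjusted p = 0.964) and Icam1 (0.53, adjusted p = 0.816) were above 0. Against Con, 14 of the 70 were higher in TNF-α+WBT and 3 were lower, where 2.31% and 1.4% of all genes were. The 3 lower genes were Tnc, Hspd1 and Ptgs2, which encodes the prostaglandin synthase COX-2 (log2 fold change -0.65, adjusted p = 0.0285, limma).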

How the data were processed

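The authors deposited FPKM values per gene and per transcript for each of the 9 libraries. The study's workflow names HISAT2, StringTie and Ballgown, and versions and genome build are not given in the sources used here. Libraries were poly(A)-selected and paired-end, from a kit whose strand setting is not stated. The 25417 genes with a value over 0 in 3 or more libraries entered limma 3.58.1 (R 4.3.3) on log2(FPKM + 0.1), a scale that understates changes of low genes. All 9 libraries shared 1 model of 3 group means, with lmFit and a trended eBayes step. A gene was called at a Benjamini-Hochberg adjusted p under 0.05. Tables were handled with Python 3.11.15 and pandas 2.3.3, and the model was tested on simulated data.

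Depth was estimated from 10675 single-transcript genes over 1000 bases. Per library 49.9 to 56.0% of low values lay within 0.1 of a whole fragment, so fragments are approximate and no count test was run. Positions come from GENCODE M21 (GRCm38), which held 98.0% of the genes, and promoters from RefSeq (GRCm38.p6).

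The members and gene lists were chosen with earlier results of these data known. All 10 members were named, and of each list up to 4 called genes with the largest fold change, genes with a single role (Tlr1, Tlr6, Tirap, Ticam2, Irak2) and the 3 genes most correlated with each called member. Other genes (Hspd1, Fn1, Dcn, Ptgs2, Dbp, Nos2, Icam1 and those listed at 0 or by promoter match) were named after their values were seen. Alternatives changed the pseudocount, filter, trend, scaling, groups fitted, source of the gene value and replicate block, and left out each library in turn. The transcript models were added after seeing the data.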

Additional observations from a re-analysis of the deposited data

How the results depend on the processing

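The call of Tlr2 held in all 19 alternatives, at log2 fold changes of 1.504 to 1.783 for TNF-α against Con and 1.29 to 1.55 for TNF-α+WBT against Con. For TNF-α+WBT against TNF-α no member, and against Con no member but Tlr2, was called in these 19. With 1 library left out, 1 to 2 members were called for TNF-α against Con (Ticam1 in addition without Con replicate 2), and 823 (without Con replicate 3) to 1111 of all genes against 1236 with all libraries. For TNF-α+WBT against Con the same step gave 579 (without Con replicate 3) to 826 of all genes against 942. For TNF-α+WBT against TNF-α it gave 0 to 10 (without TNF-α+WBT replicate 2) against 1, and the count was 11 with a pseudocount of 0.01, 7 without the intensity trend, 2 with only the 2 groups compared and 2 with summed transcript values.

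With the replicate number as a block, 0 genes were called for TNF-α+WBT against TNF-α, and the calls of the members did not change. The numbers were not used as pairs, because the deviations of libraries with the same number correlated at -0.067 to 0.095 in the 3 comparisons. Directions that turned with 1 library left out belong to differences that did not pass, and the cause was not tested. For TNF-α against Con this was Myd88 (log2 differences -0.054 to 0.082). For TNF-α+WBT against TNF-α they were Tlr3 (-0.337 to 0.078), Tlr4 (-0.242 to 1.295), Tlr4-201 (-0.891 to 0.99), Cd14 (-0.11 to 0.022), Myd88 (-0.073 to 0.011), Irak4 (-0.012 to 0.131) and Irak4-201 (-0.084 to 0.003). For TNF-α+WBT against Con it was Myd88 (-0.087 to 0.05).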
